A study of Homo sapiens with 38 samples.

Results

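IL18 and the genes of the pyroptosis machinery were followed through all conditions of an RNA sequencing experiment in HCT116 cells, a human colorectal carcinoma cell line. The genes were chosen by symbol, as the cytokine IL18, the inflammatory caspases CASP1 and CASP4, the adaptor PYCARD and the gasdermins GSDMD and GSDME. Of these 6 genes, 4 were among the 12627 genes listed, namely IL18 (NM_001562), CASP4 (NM_001225), GSDMD (NM_024736) and GSDME (NM_001127453). CASP1 and PYCARD were matched to none of the listed RefSeq identifiers and were not analysed here.

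Pyroptosis is a lytic, inflammatory form of cell death. Inflammasomes are cytosolic sensor complexes that recruit the adaptor ASC, the product of PYCARD, and activate caspase-1, which matures the precursors of interleukin-18 and interleukin-1β and cleaves gasdermin D. Caspase-4 senses intracellular lipopolysaccharide and cleaves gasdermin D directly, whereas gasdermin E is a related pore former, and the freed amino-terminal parts of both gasdermins form pores in the plasma membrane. Epithelial cells of the intestine hold the interleukin-18 precursor in the resting state. These steps act on proteins, and the data here are mRNA levels.

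The 9 conditions were non-transfected cells (NT), cells transfected with the non-targeting duplexes siCTRL#1 or siCTRL#2, cells with VPS4A silenced by siVPS4A#1 or siVPS4A#2, cells with VPS4B silenced by siVPS4B#1 or siVPS4B#2, and cells with both paralogs silenced. VPS4A and VPS4B are paralogous ATPases that disassemble ESCRT-III filaments from membranes. The siVPS4A+B#1 condition combined siVPS4A#2 with siVPS4B#1, and the siVPS4A+B#2 condition combined siVPS4A#1 with siVPS4B#2. Cells were collected 72 h after transfection. The siCTRL#1 cells received 60 nM of that duplex, the single-silencing cells received 30 nM of siCTRL#1 together with 30 nM of the on-target duplex, and the combined-silencing cells received 30 nM of each on-target duplex, while no dose was given for siCTRL#2. The labels describe the replicates as biological, all from the 1 parental HCT116 line.

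The comparisons rest on 37 of 38 libraries, 5 for siCTRL#1 and 4 for each other condition, with 5090785 to 11035016 reads. The library labelled siVPS4A#1 replicate 2 stood apart and was left out of the comparisons. It held 669257 reads, and over 9555 genes its profile correlated with that of its own condition by a Pearson r of -0.10, against 0.66 for siVPS4A+B#1. In the libraries used, VPS4A had 173 to 325 reads per 1000000 in NT and siCTRL#1 cells and 1.63 to 33.9 in the conditions that received a VPS4A duplex. VPS4B had 16.3 to 29.0 in NT and siCTRL#1 cells and 0.133 to 1.57 in those that received a VPS4B duplex. Of 7 epithelial markers 6 were listed, with a summed level of 4464 to 8331 reads per 1000000. Of 8 monocyte and macrophage markers 3 were listed (CD68, LYZ and CSF1R). CD68 ranged from 4.37 to 176 reads per 1000000 and was high with combined silencing. LYZ stayed at or under 0.927 and CSF1R at or under 1.32 in every library used.

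Levels are given as reads per 1000000 after scaling by the trimmed mean of M values (TMM). The panel amplifies 1 short stretch per gene, so that isoforms are not told apart and the levels of different genes are not compared with each other. Log2 fold changes come from limma on log2(reads per 1000000 + 1) across all 12627 genes, and a gene was called at a fold change of at least 1.5 with a Benjamini-Hochberg adjusted p under 0.05. A change was attributed to silencing of a target only if it was called in the same direction in all 4 comparisons of the 2 conditions for that target with NT and siCTRL#1.

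IL18 rose after combined silencing of VPS4A and VPS4B, and no other of the 4 genes was called in all 4 comparisons. Its GRCh37 position is chromosome 11, 112013976 to 112034819, minus strand. In NT cells the 4 libraries gave 144.0, 188.7, 169.2 and 157.0 reads per 1000000, a mean of 165 ± 19.0 (SD, n = 4). The siCTRL#1 libraries had 128.5, 161.2, 129.9, 121.5 and 136.3, a mean of 135.5 ± 15.3 (SD, n = 5). The siCTRL#2 libraries had 165.4, 177.5, 183.1 and 169.7, a mean of 174 ± 7.91 (SD, n = 4). The 13 control libraries thus lay between 121.5 and 188.7 reads per 1000000, with the siCTRL#2 libraries all above the siCTRL#1 libraries.

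After siVPS4A+B#1 transfection IL18 reached 301.9, 249.5, 415.5 and 471.3 reads per 1000000, a mean of 359.5 ± 102 (SD, n = 4). The siVPS4A+B#2 libraries had 512.8, 461.3, 755.9 and 502.6, a mean of 558 ± 134 (SD, n = 4). All 8 combined-silencing libraries lay above all 13 control libraries. In bulk RNA, more IL18 mRNA in each cell and a change in which cells remained in the culture cannot be told apart.

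**Figure D1:**
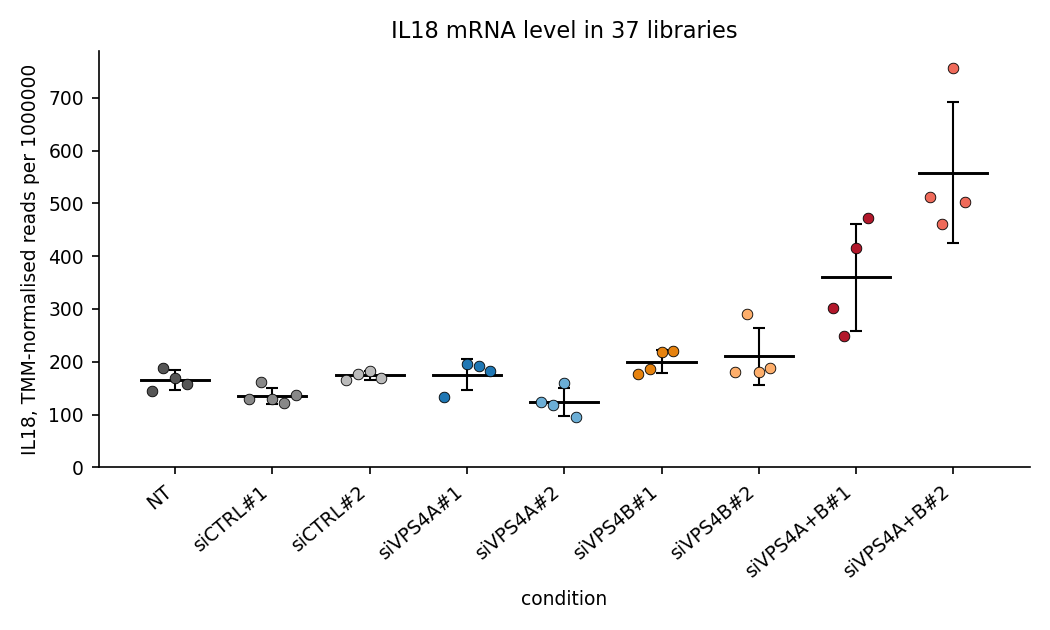
IL18 mRNA level (y axis, TMM-normalised reads per 1000000, linear) in 37 libraries of 9 conditions (x axis); each point is 1 library, the horizontal line is the mean and the bar is ± 1 SD (n = 5 for siCTRL#1, n = 4 otherwise). The 8 siVPS4A+B libraries sit between 249.5 and 755.9, and the other 29 libraries between 94.95 and 291.2.

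Against NT, IL18 was 2.12-fold higher with siVPS4A+B#1 (log2 fold change 1.08 ± 0.16 SE, limma adjusted p = 9.53e-07) and 3.33-fold higher with siVPS4A+B#2 (1.73 ± 0.16 SE, limma adjusted p = 2.11e-11). Against siCTRL#1 the same conditions gave 2.59-fold (1.37 ± 0.16 SE, limma adjusted p = 6.08e-09) and 4.07-fold (2.02 ± 0.16 SE, limma adjusted p = 2.18e-13). With siCTRL#2 as the reference the log2 differences were 1.00 (95% interval 0.67 to 1.33) and 1.65 (1.32 to 1.98). IL18 was higher in 4 of 4 pairs of libraries with the same replicate number in each of the comparisons with NT and siCTRL#1. Of all genes, 3.96% were called higher and 4.16% lower in all 4 comparisons of combined silencing. The comparisons with NT called 26% and 28.8% of all genes, and those with siCTRL#1 called 22.1% and 28.8%. Averaged over the 4 comparisons, the IL18 log2 fold change was 1.55, and it lay between 1.37 and 1.75 over 16 other ways of processing, in each of which IL18 was called.

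Both duplex pairs raised IL18, but not to the same extent. The level was lower with siVPS4A+B#1 than with siVPS4A+B#2 by a log2 difference of -0.65 (95% interval -0.98 to -0.32, limma adjusted p = 0.00216), in 4 of 4 pairs of libraries. In this comparison 17.4% of all genes were called. Leaving out replicate 2 or replicate 3 brought the difference to -0.57 and -0.58, under the fold minimum.

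Silencing of 1 paralog gave smaller differences in IL18. The siVPS4A#1 libraries had 132.8, 195.6, 192.7 and 181.5 reads per 1000000 (176 ± 29.2, SD, n = 4), and the siVPS4A#2 libraries had 122.9, 117.5, 159.4 and 94.95 (124 ± 26.7, SD, n = 4). With siVPS4B#1 the level was 175.9, 186.4, 217.5 and 219.8 (199.9 ± 22.1, SD, n = 4), and with siVPS4B#2 it was 180.4, 291.2, 179.7 and 188.4 (209.9 ± 54.3, SD, n = 4). The siVPS4A#2 libraries were the lowest of all conditions on average. All 8 siVPS4B libraries lay above all 5 siCTRL#1 libraries, and 3 of the 8 lay above all NT and siCTRL#1 libraries. Replicate 2 of siVPS4B#2, at 291.2, was the only single-silencing library above any combined-silencing library, since siVPS4A+B#1 replicate 2 had 249.5.

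No single silencing passed all 4 comparisons, a rule met in the whole table by 0% of genes (higher) and 0.00792% (lower) for VPS4A and by 0.483% and 0.634% for VPS4B. Against NT the log2 differences of IL18 were 0.07 (95% interval -0.27 to 0.42) for siVPS4A#1, -0.43 (-0.76 to -0.10) for siVPS4A#2, 0.28 (-0.05 to 0.61) for siVPS4B#1 and 0.32 (-0.01 to 0.65) for siVPS4B#2. Against siCTRL#1 they were 0.36 (0.05 to 0.68), -0.14 (-0.46 to 0.18), 0.57 (0.25 to 0.89) and 0.61 (0.29 to 0.94). Only the last of these 8 was called (limma adjusted p = 0.0077). In the order given, 25%, 8.14%, 22.3% and 15.5% of all genes were called against NT, and 22%, 0.0871%, 12.9% and 7.57% against siCTRL#1. The siVPS4B#1 difference had an adjusted p of 0.00744 by limma and was under the fold minimum, which it passed without replicate 1 (0.59) and without replicate 2 (0.68). Without replicate 2 the siVPS4B#2 difference was 0.52, under that minimum as well, and its call was also lost with library totals (0.58) and with the left-out library included (0.58, limma adjusted p = 0.0986). The 2 VPS4A duplexes differed from each other by 0.50 (95% interval 0.16 to 0.85), and the 2 VPS4B duplexes by -0.05 (-0.38 to 0.28), and neither difference was called. The VPS4A difference was called without replicate 1 (0.64) and with the left-out library included (0.85).

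Combined silencing was also compared with each of its own duplexes given without the other. Cells with 1 on-target duplex also carried 30 nM of siCTRL#1, which the combined conditions did not. VPS4A silencing was not equal either. VPS4A was higher with siVPS4A+B#1 than with siVPS4A#2 by 1.13 (limma adjusted p = 0.000107). With siVPS4A+B#2 VPS4A was higher than with siVPS4A#1 by 0.87 (limma adjusted p = 0.00527). VPS4B stood at 0.11 and 0.15 against siVPS4B#1 and siVPS4B#2, not called. IL18 was higher with siVPS4A+B#1 than with siVPS4A#2 by 1.51 (limma adjusted p = 1.12e-09) and than with siVPS4B#1 by 0.81 (limma adjusted p = 0.000392). It was higher with siVPS4A+B#2 than with siVPS4A#1 by 1.66 (limma adjusted p = 8.8e-10) and than with siVPS4B#2 by 1.41 (limma adjusted p = 5.23e-09). In the order given, these comparisons called 23.5%, 9.88%, 17.5% and 25.7% of all genes. Among the libraries used, every siVPS4A+B library lay above all libraries of its own single-silencing conditions. The lowest IL18 level with siVPS4A+B#1 was 249.5, and the highest were 159.4 with siVPS4A#2 and 219.8 with siVPS4B#1. With siVPS4A+B#2 the lowest was 461.3, and the highest were 195.6 with siVPS4A#1 and 291.2 with siVPS4B#2.

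The rise of IL18 exceeded the sum of both single effects. For the first pair, the effects of siVPS4A#2 and siVPS4B#1 against siCTRL#1 added up to 0.43 (95% interval -0.12 to 0.98) against 1.37 for siVPS4A+B#1, an excess (interaction) of 0.94 ± 0.23 SE (limma adjusted p = 0.00646). For the second pair, siVPS4A#1 and siVPS4B#2 added up to 0.98 (0.44 to 1.51) against 2.02 for siVPS4A+B#2, an excess of 1.05 ± 0.23 SE (limma adjusted p = 0.000778). The interaction was called for 6.19% of all genes in the first pair and for 18.3% in the second, and both pairs share the siCTRL#1 libraries. Without replicate 4 the excess of the first pair was 0.76 (limma adjusted p = 0.0909). With the library labelled siVPS4A#1 replicate 2 included, it was 1.00 in the first pair (limma adjusted p = 0.0857) and 0.75 in the second (0.108), and neither was called.

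**Figure D2:**
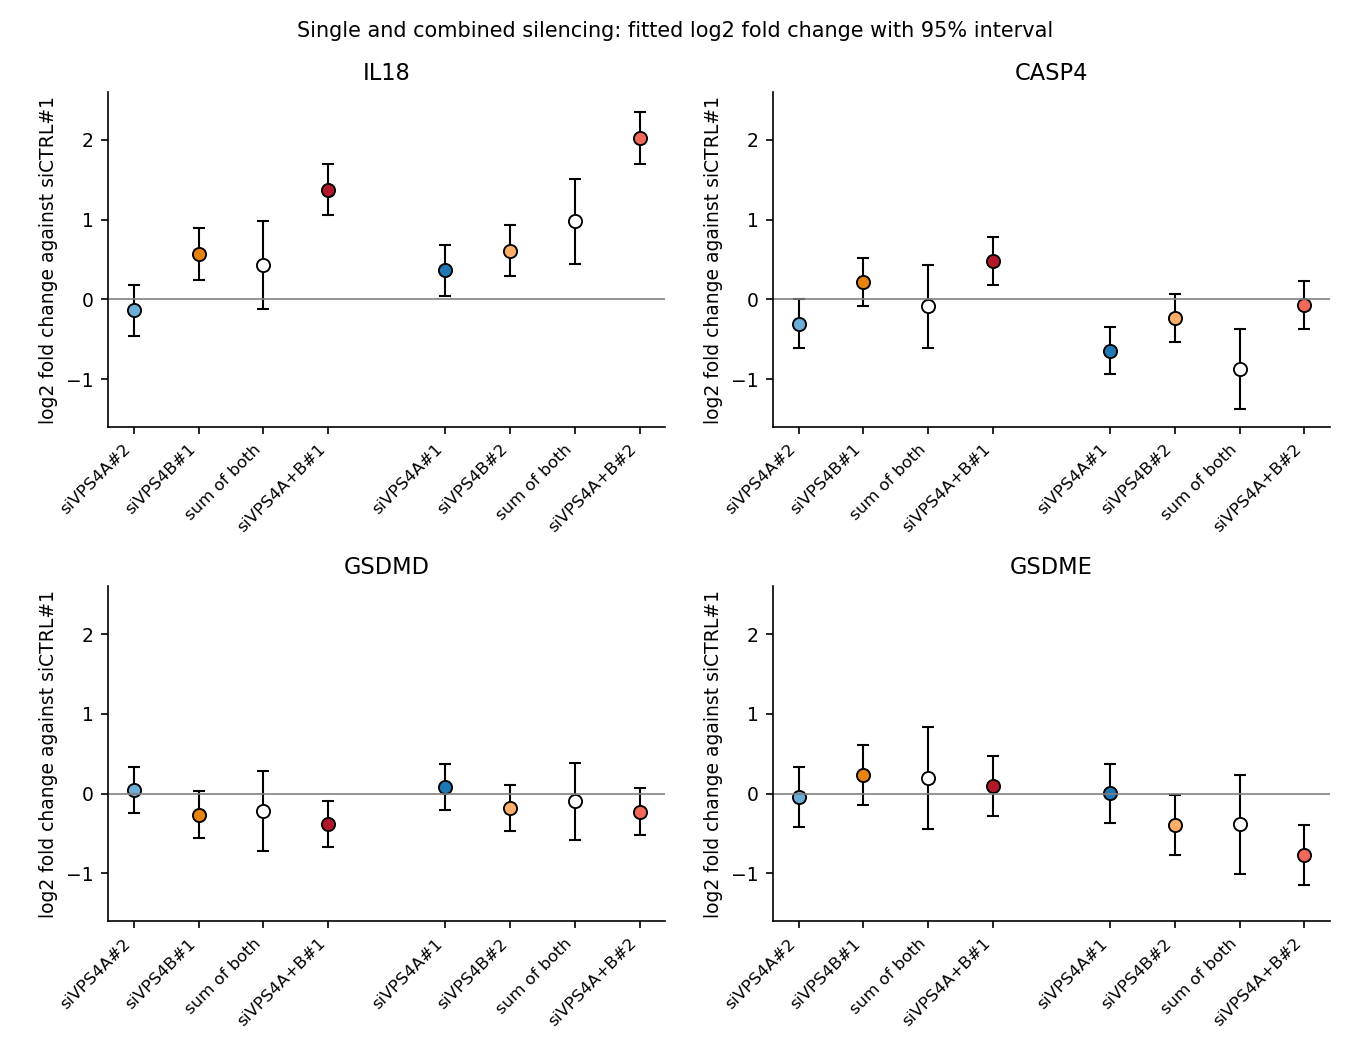
Log2 fold change against siCTRL#1 (y axis) of IL18, CASP4, GSDMD and GSDME for each duplex alone, for the sum of both single effects (white) and for the combined condition (red), the first pair on the left of each panel and the second on the right (x axis); points are limma estimates and bars their 95% intervals. In the IL18 panel the combined effects of 1.37 and 2.02 lie above the sums of 0.43 and 0.98, and in the GSDMD panel every point lies between -0.38 and 0.08.

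CASP4, the intracellular lipopolysaccharide sensor, was called lower than in NT cells with siCTRL#1 and in 4 of 6 silencing conditions, and was not called in all 4 comparisons for any target. Its GRCh37 position is chromosome 11, 104813593 to 104840093, minus strand. The NT libraries had 55.53, 31.31, 35.91 and 33.72 reads per 1000000 (39.1 ± 11.1, SD, n = 4), and the siCTRL#1 libraries had 32.83, 19.73, 18.12, 30.41 and 23.18 (24.9 ± 6.50, SD, n = 5). The siCTRL#2 libraries had 46.73, 24.15, 30.32 and 31.57 (33.2 ± 9.59, SD, n = 4). Replicate 1 was the highest in all 3 control conditions, and the conditions overlapped.

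CASP4 was lower in siCTRL#1 than in NT cells by a log2 difference of -0.66 (95% interval -0.96 to -0.36, limma adjusted p = 0.00178), in 4 of 4 pairs of libraries, and siCTRL#2 cells, also below NT in 4 of 4 pairs, stood at -0.23 (-0.54 to 0.08), which was not called. The siCTRL#1 call was lost without replicate 3 (-0.56), with a pseudocount of 5 (-0.58) and with the left-out library included (-0.62, limma adjusted p = 0.0674). These comparisons called 9.05% and 16.6% of all genes. The difference between the non-targeting duplexes, 0.43 (0.12 to 0.73) higher with siCTRL#2, was under the fold minimum, and 16.8% of all genes were called between them. NT cells were not transfected and all single-silencing cells also carried siCTRL#1, so that transfection, that duplex and the on-target duplex cannot be told apart in the comparisons with NT.

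With VPS4A silenced, CASP4 was at its lowest. The siVPS4A#1 libraries had 19.94, 10.53, 16.70 and 18.33 reads per 1000000 (16.4 ± 4.11, SD, n = 4), and the siVPS4A#2 libraries had 28.71, 16.90, 14.84 and 18.32 (19.7 ± 6.18, SD, n = 4). All 8 lay below all 4 NT libraries, and 4 of the 8 lay below all 5 siCTRL#1 libraries. Against NT, CASP4 fell with siVPS4A#1 by 1.30 on the log2 scale (limma adjusted p = 1.98e-08) and with siVPS4A#2 by 0.96 (limma adjusted p = 3.08e-05). Against siCTRL#1 the fall of 0.64 with siVPS4A#1 was called (limma adjusted p = 0.000544), and the value of -0.30 with siVPS4A#2 was not (limma adjusted p = 0.778). The siVPS4A#1 call was lost without the replicate block (-0.57, under the fold minimum), with a pseudocount of 5 (-0.54) and with the left-out library included (-0.29). With siCTRL#2 in place of siCTRL#1, CASP4 was called lower in all 4 comparisons of VPS4A silencing, with a mean of -1.01.

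With VPS4B silenced the libraries had 33.40, 25.15, 21.06 and 33.82 reads per 1000000 for siVPS4B#1 (28.4 ± 6.30, SD, n = 4) and 30.10, 12.95, 20.44 and 20.33 for siVPS4B#2 (21.0 ± 7.03, SD, n = 4). Only the fall of 0.89 with siVPS4B#2 against NT was called (limma adjusted p = 2.85e-05). The log2 difference of siVPS4B#1 against NT was -0.44, and it was called without replicate 4 (-0.59). Against siCTRL#1 the values were 0.22 (95% interval -0.08 to 0.52) and -0.23 (-0.53 to 0.07).

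Combined silencing brought CASP4 to 43.66, 30.88, 29.23 and 31.95 reads per 1000000 with siVPS4A+B#1 (33.9 ± 6.59, SD, n = 4) and to 22.67, 21.35, 21.14 and 25.37 with siVPS4A+B#2 (22.6 ± 1.95, SD, n = 4). All siVPS4A+B#1 libraries lay above all siVPS4A+B#2 libraries, with a log2 difference of 0.55 (95% interval 0.24 to 0.86, limma adjusted p = 0.00564) that was under the fold minimum, and that passed it without replicate 4 (0.63). Against NT the differences were -0.18 for siVPS4A+B#1 and -0.73 for siVPS4A+B#2, of which the second was called (limma adjusted p = 0.000152) in all ways of processing but the fit without replicate 1, which gave -0.55. Against siCTRL#1 they were 0.48 (limma adjusted p = 0.0106, under the fold minimum, and 0.61 and called without replicate 4) and -0.07.

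Relative to cells with the VPS4A duplex and siCTRL#1, CASP4 was higher in the combined conditions, by 0.78 with siVPS4A+B#1 over siVPS4A#2 (limma adjusted p = 8.47e-05) and by 0.57 with siVPS4A+B#2 over siVPS4A#1 (limma adjusted p = 0.00661, under the fold minimum). The second value lay between 0.20 and 0.72 over 15 other ways of processing, and it was called without replicate 1, 4 or 5 (0.72, 0.59 and 0.62), with edgeR and DESeq2 on the recovered reads (0.59 in both), and with a pseudocount of 0.1 (0.60). These comparisons also set cells with siCTRL#1 against cells without it. The interaction was 0.56 ± 0.21 SE in the first pair (limma adjusted p = 0.118) and 0.80 ± 0.21 SE in the second (limma adjusted p = 0.00575, called). The second was not called without the replicate block (0.73, limma adjusted p = 0.116), without replicate 2 (0.63, limma adjusted p = 0.0668) or with the left-out library (0.47, limma adjusted p = 0.356).

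GSDMD, which encodes the pore-forming substrate of caspase-1 and caspase-4, was called in none of the 12 comparisons of a silencing condition with NT or siCTRL#1 by limma. These 12 comparisons each called between 0.0871% and 28.8% of all genes. At an unadjusted p under 0.05 GSDMD passed in 1 of the 12, and edgeR and DESeq2 on the recovered reads called 0. Its GRCh37 position is chromosome 8, 144635377 to 144645232, plus strand. The NT libraries had 107.4, 75.79, 91.20 and 101.8 reads per 1000000 (94.1 ± 13.9, SD, n = 4), and the siCTRL#1 libraries had 145.1, 73.62, 107.2, 126.9 and 80.51 (107 ± 30.3, SD, n = 5). In the 6 silencing conditions the means lay between 84.1 (siVPS4A+B#1) and 114 (siVPS4A#1) reads per 1000000. The log2 differences ranged from -0.16 to 0.30 against NT and from -0.38 to 0.08 against siCTRL#1, the lowest with siVPS4A+B#1 (95% interval -0.67 to -0.09, limma adjusted p = 0.0356, under the fold minimum). The 95% intervals against NT reached from -0.46 to 0.14 for siVPS4A+B#1 and from -0.30 to 0.30 for siVPS4A+B#2, so that changes within these bounds were not excluded. The interaction was -0.17 in the first pair and -0.13 in the second, and neither was called.

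The largest difference of GSDMD from NT or siCTRL#1 came with a control duplex. The siCTRL#2 libraries had 41.68, 26.02, 31.40 and 23.54 reads per 1000000 (30.7 ± 8.05, SD, n = 4), and all 4 lay below every other library of the set, the next lowest being 64.68. GSDMD fell with siCTRL#2 by 1.61 on the log2 scale against NT (95% interval -1.91 to -1.31, limma adjusted p = 4.42e-11) and by 1.83 against siCTRL#1 (-2.12 to -1.54, limma adjusted p = 7.27e-13). Both falls were called in all 15 other ways of processing. The siCTRL#1 cells stood at 0.22 (-0.07 to 0.51) against NT.

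GSDME, which encodes another pore-forming gasdermin, differed between duplexes for the same target. Its GRCh37 position is chromosome 7, 24737974 to 24797559, minus strand. The NT libraries had 27.06, 40.33, 28.95 and 37.11 reads per 1000000 (33.4 ± 6.37, SD, n = 4), and the siCTRL#1 libraries had 46.13, 36.33, 42.84, 47.35 and 39.45 (42.4 ± 4.59, SD, n = 5). The siCTRL#2 libraries had 33.75, 40.21, 27.45 and 31.29 (33.2 ± 5.36, SD, n = 4). The control conditions overlapped, and none of the 3 differences between them was called.

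After VPS4B silencing GSDME had 67.87, 51.57, 45.98 and 37.99 reads per 1000000 with siVPS4B#1 (50.9 ± 12.6, SD, n = 4) and 37.82, 28.16, 29.15 and 33.49 with siVPS4B#2 (32.2 ± 4.43, SD, n = 4). The first duplex gave the higher level in 4 of 4 pairs of libraries, with a log2 difference of 0.62 (95% interval 0.24 to 1.01, limma adjusted p = 0.0128) in a comparison that called 15.1% of all genes. Leaving out replicate 1 or replicate 2 ended this call (0.55 in both, limma adjusted p = 0.0857 and 0.0868), as did a pseudocount of 5 (0.57). Against NT the siVPS4B#1 value of 0.58 (95% interval 0.20 to 0.97, limma adjusted p = 0.0142) was just under the fold minimum, and edgeR and DESeq2 on the recovered reads put it above that minimum, at 0.59 and 0.61. Without replicate 2, 4 or 5 it was called as well (0.66, 0.76 and 0.59). The siVPS4B#2 value was -0.04 (-0.43 to 0.34), and against siCTRL#1 the values were 0.23 and -0.39.

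The duplex pairs for combined silencing differed in the same way. With siVPS4A+B#1 GSDME had 63.00, 53.70, 37.81 and 32.68 reads per 1000000 (46.8 ± 14.02, SD, n = 4), and with siVPS4A+B#2 it had 29.61, 21.77, 14.41 and 37.27 (25.8 ± 9.87, SD, n = 4). The level was higher with siVPS4A+B#1 in 3 of 4 pairs of libraries, with a log2 difference of 0.87 (95% interval 0.49 to 1.25, limma adjusted p = 0.000493). Against siCTRL#1 GSDME fell by 0.77 with siVPS4A+B#2 (limma adjusted p = 0.000734) and stood at 0.10 with siVPS4A+B#1. Against NT the values were -0.42 and 0.45, and neither was called, although the first passed without replicate 1 (-0.60) and the second without replicate 4 (0.66). The call of siVPS4A+B#2 against siCTRL#1 was lost without replicate 3 (-0.51, limma adjusted p = 0.0545), whose library had the lowest level.

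With VPS4A silenced the GSDME means were close to that of siCTRL#1. The siVPS4A#1 libraries had 47.55, 39.11, 36.61 and 45.70 reads per 1000000 (42.2 ± 5.22, SD, n = 4), and the siVPS4A#2 libraries had 48.50, 43.83, 26.32 and 50.66 (42.3 ± 11.1, SD, n = 4). None of the 4 differences from NT and siCTRL#1 was called. Against NT, 25% of all genes were called with siVPS4A#1 and 8.14% with siVPS4A#2, and against siCTRL#1 22% and 0.0871%. Between the 2 duplexes 22.2% of all genes were called, and GSDME was not. GSDME was lower with siVPS4A+B#2 than with siVPS4A#1, by a difference of -0.78 (limma adjusted p = 0.00303, and -0.53 without replicate 3, limma adjusted p = 0.115), and stood at -0.38 against siVPS4B#2 (95% interval -0.76 to 0.00, not called). The interaction was -0.10 in the first pair and -0.39 in the second, and neither was called.

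**Figure D3:**
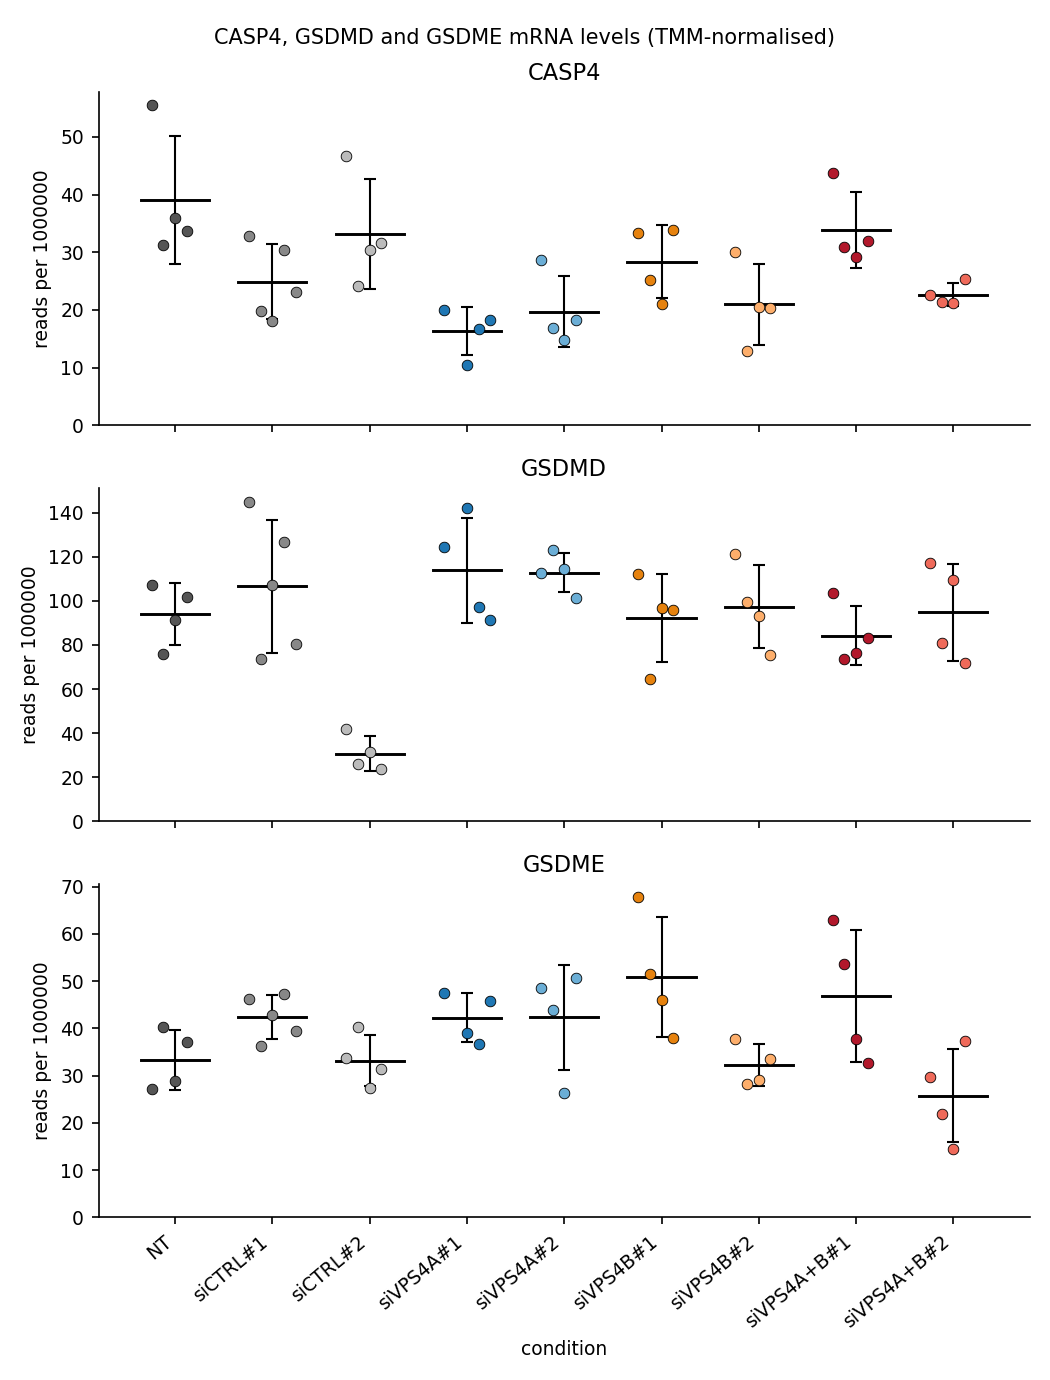
CASP4, GSDMD and GSDME mRNA levels (y axes, TMM-normalised reads per 1000000, linear) in 37 libraries of 9 conditions (x axis); points are libraries, horizontal lines the means and bars ± 1 SD (n = 5 for siCTRL#1, n = 4 otherwise). CASP4 is lowest with siVPS4A#1 (16.4), GSDMD stands apart only in the siCTRL#2 libraries (23.54 to 41.68), and GSDME is lowest with siVPS4A+B#2 (25.8).

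Side by side, IL18 was the only member called higher against both NT and siCTRL#1 in any silencing condition. CASP4 was called lower against both controls in 1 condition, siVPS4A#1, and GSDMD and GSDME in none. Against NT and siCTRL#1, 25% and 22% of all genes were called with siVPS4A#1, and 26% and 22.1% with siVPS4A+B#1. With siVPS4A+B#2 it was 28.8% against either, and the share of all genes called against both controls was not counted. Over the 37 libraries the Pearson r between the log2 levels of the members was -0.48 for IL18 with GSDME and lay between -0.25 and 0.15 for the other 5 pairs, as a description of points that share 9 conditions and 5 replicate numbers.

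The wider inflammasome and pyroptosis list held 60 genes, of which 26 were among the genes listed. Of these 26, 3 rose in all 4 comparisons of combined silencing (IL18, NEK7 and DPP9) and 0 fell, where 3.96% of all genes were called higher and 4.16% lower. The median log2 fold change of the list was 0.14, and that of all genes was -0.03. Against siCTRL#1, 6 of the 26 were called higher and 1 lower with siVPS4A+B#1, and 7 higher and 6 lower with siVPS4A+B#2, where 22.1% and 28.8% of all genes were called in either direction. Against NT the counts were 12 higher and 1 lower with siVPS4A+B#1 and 9 higher and 3 lower with siVPS4A+B#2, where 26% and 28.8% of all genes were called. For VPS4A and for VPS4B alone, limma called 0 of 26 in all 4 comparisons, as did edgeR and DESeq2. In the whole table limma called 0% of genes higher and 0.00792% lower for VPS4A, and 0.483% and 0.634% for VPS4B. With shares this small, 0 of 26 says little about the list. At an unadjusted p under 0.05 and without a fold minimum, limma gave 8 higher and 1 lower with combined silencing, 0 and 1 with VPS4A silenced, and 1 and 0 with VPS4B silenced. With limma, at an adjusted p under 0.05 but without a fold minimum, 6 rose and 1 fell with combined silencing. With the fold minimum kept, edgeR and DESeq2 on the recovered reads called 4 higher each and 1 and 0 lower.

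NEK7, a kinase needed for NLRP3 inflammasome assembly, rose to 39.3 ± 8.78 reads per 1000000 with siVPS4A+B#1 and 46.5 ± 5.35 with siVPS4A+B#2, where NT cells had 23.5 ± 2.99 (SD, n = 4 each) and siCTRL#1 cells had 21.0 ± 1.49 (SD, n = 5). The NEK7 log2 fold changes in these conditions were 0.70 and 0.95 (NT as the reference) and 0.86 and 1.11 (siCTRL#1 as the reference) (limma adjusted p from 3.6e-09 to 4.35e-05). NEK7 was also called higher with siVPS4B#1 against both controls (0.61 and 0.77), and its interaction was 0.15 and 0.14, not called. DPP9, a dipeptidyl peptidase that restrains NLRP1 and CARD8, went from 39.8 ± 6.37 and 42.1 ± 9.34 in NT and siCTRL#1 cells to 65.4 ± 19.2 and 72.6 ± 28.8 with siVPS4A+B#1 and siVPS4A+B#2, with log2 fold changes between 0.64 and 0.80 (largest limma adjusted p = 0.0017). DPP9 was as high in siCTRL#2 cells, at 76.7 ± 4.89 (SD, n = 4), and against these the combined conditions stood at -0.27 and -0.15.

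IRF1, an interferon regulatory factor, had 14.7 ± 1.68 reads per 1000000 in NT and 20.7 ± 3.97 in siCTRL#1 cells (SD, n = 4 and 5), and 31.6 ± 15.1 and 35.1 ± 3.38 with siVPS4A+B#1 and siVPS4A+B#2. It was called higher against both controls only with siVPS4A+B#2 (1.20 and 0.71), and its interaction was 1.07 and 1.54 (limma adjusted p = 0.00529 and 1.55e-05). IRF2, a related factor, was lower with siVPS4A#1, at 23.7 ± 2.47 against 38.6 ± 2.51 in NT and 46.0 ± 5.09 in siCTRL#1 cells (-0.64 and -0.90, both called). The other VPS4A duplex, siVPS4A#2, gave 41.4 ± 6.35 for IRF2 and no call. With siVPS4A+B#2, which holds siVPS4A#1, IRF2 had 27.5 ± 2.87 and was called lower against siCTRL#1 (-0.73) but not against NT (-0.48). The channel gene PANX1 rose with siVPS4A+B#1 to 19.95 ± 5.07 from 12.2 ± 1.84 in NT and 12.1 ± 1.44 in siCTRL#1 cells (0.65 and 0.69, both called).

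Several more of the genes named by the rule rested on few reads. The sensor NLRP1 was called higher with siVPS4A#1 (5.11 ± 1.79 reads per 1000000) and siVPS4A+B#2 (4.80 ± 1.35) against NT (2.23 ± 0.715) and siCTRL#1 (2.03 ± 0.485). With siVPS4A#2 NLRP1 had 2.165 ± 0.995 and was not called. The sensor NOD2 was called higher with siVPS4A+B#1 (3.97 ± 0.450, against 1.93 ± 0.131 in NT and 2.17 ± 0.707 in siCTRL#1 cells). The initiator caspase gene CASP8 was called higher with siVPS4A+B#2, at 6.82 ± 1.19 against 2.59 ± 0.728 in NT cells.

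On the receptor side, IL18R1 encodes the interleukin-18 receptor chain that binds the cytokine. It had 14 to 17 reads in the NT, 8 to 26 in the siCTRL#1 and 12 to 23 in the siCTRL#2 libraries. With siVPS4A#1 IL18R1 had 3 to 8 reads and with siVPS4A+B#2 1 to 8, and it was called lower in both conditions against both NT and siCTRL#1. With siVPS4A#2 it had 16 to 27 reads and was not called. P2RX7, the ATP-gated channel, had 12 to 28 reads in NT, 6 to 22 in siCTRL#1 and 7 to 11 in siCTRL#2 libraries. With siVPS4A+B#2, where P2RX7 was called lower, it had 1 to 4. IL1A, a cytokine precursor released from damaged cells, had 0 to 3 reads in NT, 2 to 4 in siCTRL#1 and 0 to 8 in siCTRL#2 libraries. With siVPS4A+B#1 it had 4 to 13. IL1A was called there against both NT and siCTRL#1, but so few reads give no usable fold. IL1RAP, a shared receptor chain, was called higher against NT and lower against siCTRL#1 with siVPS4A#1 and with siVPS4B#2, so that its direction depended on the control.

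**Figure D4:**
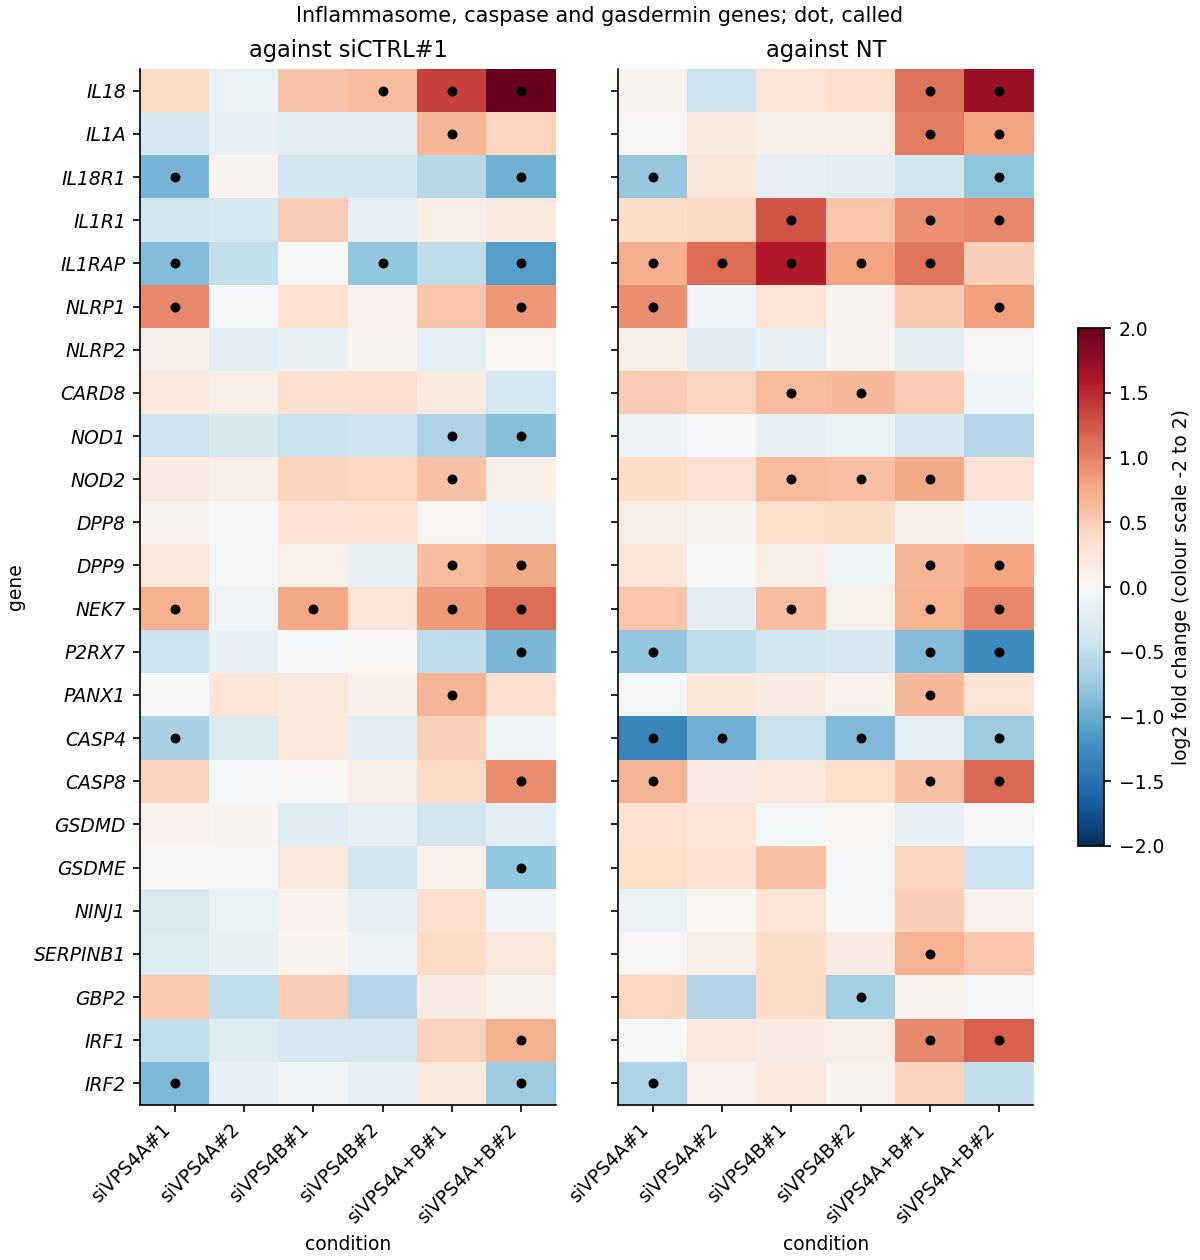
Log2 fold change (colour, from blue for lower to red for higher, on a scale of -2 to 2) of 24 of the 26 listed inflammasome, caspase and gasdermin genes (rows) in the 6 silencing conditions (columns), against siCTRL#1 on the left and NT on the right; a dot marks a call. IL18, DPP9 and NEK7 carry dots in both siVPS4A+B columns of both panels, while GSDMD carries none.

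Of the 3 listed monocyte and macrophage markers, CD68 was high with combined silencing, where IL18 was high as well. Between the 2 combined conditions the order was opposite, since the markers reached higher with siVPS4A+B#1 and IL18 with siVPS4A+B#2. The summed level of the 3 was 5.84 to 13.5 reads per 1000000 in the control libraries, 5.97 to 26.7 with single silencing, 91.1 to 178 with siVPS4A+B#1 and 41.5 to 96.3 with siVPS4A+B#2. This sum was almost wholly CD68, which encodes a lysosomal membrane protein and ranged from 4.37 to 176 reads per 1000000, while LYZ and CSF1R were at or near 0 in every library used. The summed epithelial markers were 4464 to 7106 in the control libraries and 5658 to 8331 with combined silencing. Of 5 fibroblast markers 2 were listed (COL1A1 and PDGFRB), and their summed level was 8.12 to 15.4 reads per 1000000 in NT, 15.9 to 32.1 in siCTRL#1 and 17.0 to 32.6 in siCTRL#2 libraries. It was 16.7 to 61.2 with single silencing, highest with siVPS4A#1, 23.0 to 41.2 with siVPS4A+B#1 and 51.4 to 85.4 with siVPS4A+B#2. This sum was almost wholly COL1A1, a collagen gene, since PDGFRB stayed at or under 1.10. The part of these markers in the IL18 result was not tested.

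The genes most like each member were taken from the 9569 genes with a mean of at least 5 reads per 1000000, by Pearson r of log2 levels over the 37 libraries. For IL18 they were OPTN (0.92), SQSTM1 (0.91) and B2M (0.91), which encode a pair of autophagy receptors and the light chain of MHC class I. SQSTM1 averaged 611 reads per 1000000 in NT cells, 5982 with siVPS4A+B#1 and 6509 with siVPS4A+B#2. In the 29 libraries without combined silencing the r of these genes with IL18 was 0.55, 0.61 and 0.59.

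For CASP4 the most alike were AHCYL1 (0.77), MET (0.77) and SYNE3 (0.76). MET, a receptor tyrosine kinase gene, averaged 229 reads per 1000000 in NT and 244 in siCTRL#2 cells and 49.5 with siCTRL#1. For GSDMD they were TSTD1 (0.91), INTS11 (0.89) and GPAA1 (0.89), each lowest with siCTRL#2 (means of 16.9, 17.5 and 52.7 reads per 1000000 against 67.0, 69.6 and 177.5 in siCTRL#1 cells). For GSDME they were ETFB (0.83), FAM234A (0.80) and SARDH (0.80).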

How the data were processed

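RNA of HCT116 cells was measured in 38 libraries made with an Ion AmpliSeq gene expression panel. The authors mapped the reads (hg19) and counted them per gene, and the submitters' processing notes name HTSeq 0.6.0 and DESeq2 1.18.1. What they deposited is a signal: for each of 12627 genes, its reads as a fraction of the reads of its library. The share of 1 read is the step of which low values are whole multiples (100% of the values up to 20 reads, within 0.1 read), and reads were recovered by dividing by it. Symbols were found for 12474 RefSeq identifiers, and coordinates came from the GRCh37 annotation. A library of 5090785 reads puts the floor of 3 reads at 0.589 reads per 1000000, which covers counting error only.

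Reads were TMM-scaled (edgeR 4.0.16), and log2(reads per 1000000 + 1) was fitted with limma 3.58.1 in R 4.3.3, with the 9 conditions, the replicate number as a block and an intensity trend. The replicate number marks a batch in the labels (a to e). Deviations of same-numbered libraries correlated by 0.19 on average (137 pairs), and others by -0.08 (529 pairs). Comparisons with siCTRL#1 share its libraries, as do those with NT.

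The members, the lists, the tests and the decision to leave out 1 library were chosen with earlier results of these data known. Named genes were the members, listed pathway genes called in all 4 comparisons of combined silencing or against both NT and siCTRL#1 in 1 silencing condition, VPS4A and VPS4B, and the 3 genes most like each member. Alternatives were edgeR's quasi-likelihood test and DESeq2 1.42.0 on the recovered reads, no replicate block, library totals, DESeq2 size factors, pseudocounts of 0.1 and 5, a filter of 10 reads in 4 libraries, the left-out library included, no fold minimum, siCTRL#2 in place of siCTRL#1, and fits without each replicate. CASP1, PYCARD and 34 of the 60 pathway genes, which include them, were not analysed here. Single values of 2 genes of the pathway list are not reported here.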

Additional observations from a re-analysis of the deposited data

Results flagged for a closer look

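Among 36 sets of libraries (4 genes in 9 conditions), 1 held a library far from the others, IL18 in siVPS4B#2 replicate 2 at 291.2 reads per 1000000, against 179.7 to 188.4 in the other 3 libraries. Chance alone marks about 1 set in 20.

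The effect of combined silencing differed from the sum of the single effects for IL18, by 0.944 on the log2 scale in the first pair and 1.046 in the second, and for CASP4 by 0.802 in the second pair (limma adjusted p = 0.00646, 0.000778 and 0.00575).

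Duplexes for the same target differed for IL18 between siVPS4A+B#1 and siVPS4A+B#2 (-0.65, limma adjusted p = 0.00216) and for GSDME between siVPS4B#1 and siVPS4B#2 (0.624, limma adjusted p = 0.0128) and between siVPS4A+B#1 and siVPS4A+B#2 (0.869, limma adjusted p = 0.000493).

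The library left out of the comparisons, labelled siVPS4A#1 replicate 2, had 306 IL18 reads, or 495.2 reads per 1000000, where no control library exceeded 188.7 and the other siVPS4A#1 libraries had 132.8 to 195.6. CASP4 stood at 42.08, GSDMD at 72.83 and GSDME at 27.51 reads per 1000000 in that library, within the range of the control libraries. It held 7 VPS4A reads and 1 VPS4B read, the latter 1.62 reads per 1000000 against 21.4 to 32.1 in the other siVPS4A#1 libraries.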

How the results depend on the processing

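Of 1242 values recomputed for 82 results, 1159 kept their direction and their side of the threshold or, for counts, stayed within 1.5 times. IL18 under combined silencing was called under all 16 alternatives. With siCTRL#2 in place of siCTRL#1 the mean log2 fold change under combined silencing became 0.722 for GSDMD and 0.014 for GSDME, under VPS4B silencing 0.804 for GSDMD, and under VPS4A silencing -1.014 for CASP4, which was then called. The mean for IL18 under VPS4A silencing became 0.012 with library totals and 0.122 with the left-out library. That library also ended the IL18 interaction calls (0.997 and 0.752, limma adjusted p = 0.0857 and 0.108), the CASP4 interaction call of the second pair (0.469, 0.356) and the CASP4 call of siCTRL#1 against NT (-0.619, 0.0674). Without the replicate block the CASP4 interaction was 0.732 (limma adjusted p = 0.116) and CASP4 with siVPS4A#1 against siCTRL#1 was -0.572, under the fold minimum, and the block decided no other call of the results listed. With a pseudocount of 5 the CASP4 value of siCTRL#1 against NT was -0.579, and without a fold minimum CASP4 between siCTRL#2 and siCTRL#1 was called (0.425). With library totals GSDME moved to 0.016 for siCTRL#2 against NT and to -0.075 for siVPS4A+B#1 against siCTRL#1. Pathway genes called with combined silencing numbered 6 higher without a fold minimum, and 1 lower there, with edgeR, with library totals and with a pseudocount of 0.1. Of all genes, 908 were called higher and 902 lower without a fold minimum, and 271 lower with a pseudocount of 5. The cause of these changes was not tested.

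Without each replicate in turn, 27 of the 82 results changed direction or call in at least 1 fit. The ranges were -0.117 to 0.041 for IL18 under VPS4A silencing, -0.04 to 0.193 for GSDME under VPS4B silencing, and for the interactions 0.76 to 1.035 (IL18, first pair), 0.629 to 0.984 (CASP4, second pair) and -0.244 to 0.04 (GSDMD, second pair). Between controls they were -0.825 to -0.562 for CASP4 (siCTRL#1 against NT) and -0.108 to 0.077 for GSDME (siCTRL#2 against NT). IL18 ran from -0.007 to 0.143 for siVPS4A#1 against NT and from -0.16 to 0.153 between the VPS4B duplexes. GSDME ran from -0.21 to 0.111 for siVPS4B#2 against NT and from -0.041 to 0.287 for siVPS4A+B#1 against siCTRL#1, and CASP4 from -0.161 to 0.087 for siVPS4A+B#2 against siCTRL#1. Values of siVPS4B#1 ran from 0.489 to 0.677 for IL18 against siCTRL#1, from 0.34 to 0.764 for GSDME against NT and from -0.588 to -0.344 for CASP4 against NT. CASP4 ran from -0.842 to -0.548 for siVPS4A+B#2 against NT, from 0.429 to 0.721 for siVPS4A+B#2 against siVPS4A#1, from 0.42 to 0.609 for siVPS4A+B#1 against siCTRL#1 and from 0.423 to 0.626 between the combined conditions. GSDME ran from 0.203 to 0.656 and from -0.596 to -0.237 for siVPS4A+B#1 and siVPS4A+B#2 against NT, and IL18 from 0.324 to 0.64 between the VPS4A duplexes. The others were IL18 between the combined conditions (-0.836 to -0.572) and for siVPS4B#2 against siCTRL#1 (0.524 to 0.684), and GSDME for siVPS4A+B#2 against siCTRL#1 (-0.933 to -0.512) and siVPS4A#1 (-1.054 to -0.528) and between the VPS4B duplexes (0.548 to 0.772). Genes with under about 30 reads in a library, such as IL18R1, IL1A and P2RX7, are limited by depth.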
